A study of Mus musculus with 16 samples.

Results

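The genes described here are the lysine acetyltransferases (writers of acetyl marks), the deacetylases (erasers) and bromodomain proteins that bind acetylated lysine (readers) of the mouse hippocampus. They are 35 of the 19935 genes tested, namely 10 writers, 18 erasers and 7 readers, and were chosen by name. All 35 had a probe set with a single gene symbol, and where a gene had several, the brightest over all arrays was taken.

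Writers transfer an acetyl group from acetyl-CoA to lysines of histones and other proteins, which loosens the contact of histones with DNA and creates docking sites for bromodomains. Erasers remove the group. Many of the zinc-dependent deacetylases (the Hdac genes) work inside corepressor complexes and some act in the cytoplasm, while sirtuins need NAD and so depend on the metabolic state of the cell. In the hippocampus, acetylation of histones accompanies memory formation, and deacetylase inhibitors have been studied for memory in mice that lack a copy of Crebbp. Crebbp encodes CBP, itself a writer and a coactivator of the transcription factor CREB.

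Total RNA of hippocampus was hybridised to 16 Affymetrix Mouse Gene 1.0 ST arrays, which read a transcript with probes along its length. The mice were females of 3 months by their sample labels, from an F2 of C57BL/6J and DBA, and each array held a pool of RNA from 4 mice, 64 in all. The groups were enriched cbp+/- mice (3 arrays), standard-cage cbp+/- mice (5 arrays), enriched wild-type mice (3 arrays) and standard-cage wild-type mice (5 arrays). Cbp+/- mice are heterozygous for CBP deficiency and wild-type mice were their littermates. Enrichment meant 2 weeks in a large shared box with wheels, tubing and toys, rearranged every 48 h, and tissue was taken at least 16 h after a change. Because the tissue was whole hippocampus, fewer cells of a type and less RNA per cell cannot be told apart. All levels below are log2 of the deposited signal and all differences are on that log2 scale. A level is compared between arrays only, not between genes.

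Features of the arrays as a whole bear on every result. Hierarchical clustering split the 16 arrays into 3 sets that cross the groups. Set 1 held replicates 1 and 2 of every group, set 2 held replicates 3 and 4 of both standard-cage groups, and set 3 held replicate 5 of both standard-cage groups with replicate 3 of both enriched groups. Of the main axis of variation (31.7% of all variance in a principal component analysis), 87.1% lay between these sets, 1.92% between housings and 0.346% between genotypes. The sets were made from the same values, so their share is partly built in. No label names them as a batch. The interquartile range of signals on an array was 2.30 to 2.43 in enriched wild-type mice, against 2.51 to 2.59 in standard-cage wild-type mice. All 14 markers of hippocampal pyramidal and granule neurons were measured, with mean levels between 7.56 and 11.90. The Crebbp probe set went against its label. It read 9.36 ± 0.025 (SD, n = 3) on enriched arrays labelled cbp+/- against 9.26 ± 0.082 (n = 3) in enriched wild type, and 9.57 ± 0.216 (n = 5) on standard-cage arrays labelled cbp+/- against 9.43 ± 0.176 (n = 5) in standard-cage wild type. The differences were 0.10 (SE 0.128) in enrichment and 0.14 (SE 0.099) in standard cages. The probe set read higher on each array labelled cbp+/- than on the wild-type array of the same number and housing. Of all 21780 tested probe sets, 222 did so. It was therefore not lower on arrays labelled cbp+/-. The sources used here do not say which part of the gene the allele lacks, so the probe set checks little. Every genotype comparison below rests on the labels alone. Ep300, the paralog of Crebbp, differed between genotypes by -0.02 (SE 0.165) in enrichment and by 0.05 (SE 0.128) in standard cages.

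None of the 35 members passed an adjusted p of 0.05 in any of the 7 comparisons made in limma (Benjamini-Hochberg over 21780 probe sets), and neither did any other probe set, so 0% was called. The differences that follow are therefore descriptions with their errors. Unadjusted p below 0.05 is given as a count beside the share of all probe sets that reached it.

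**Figure D1:**
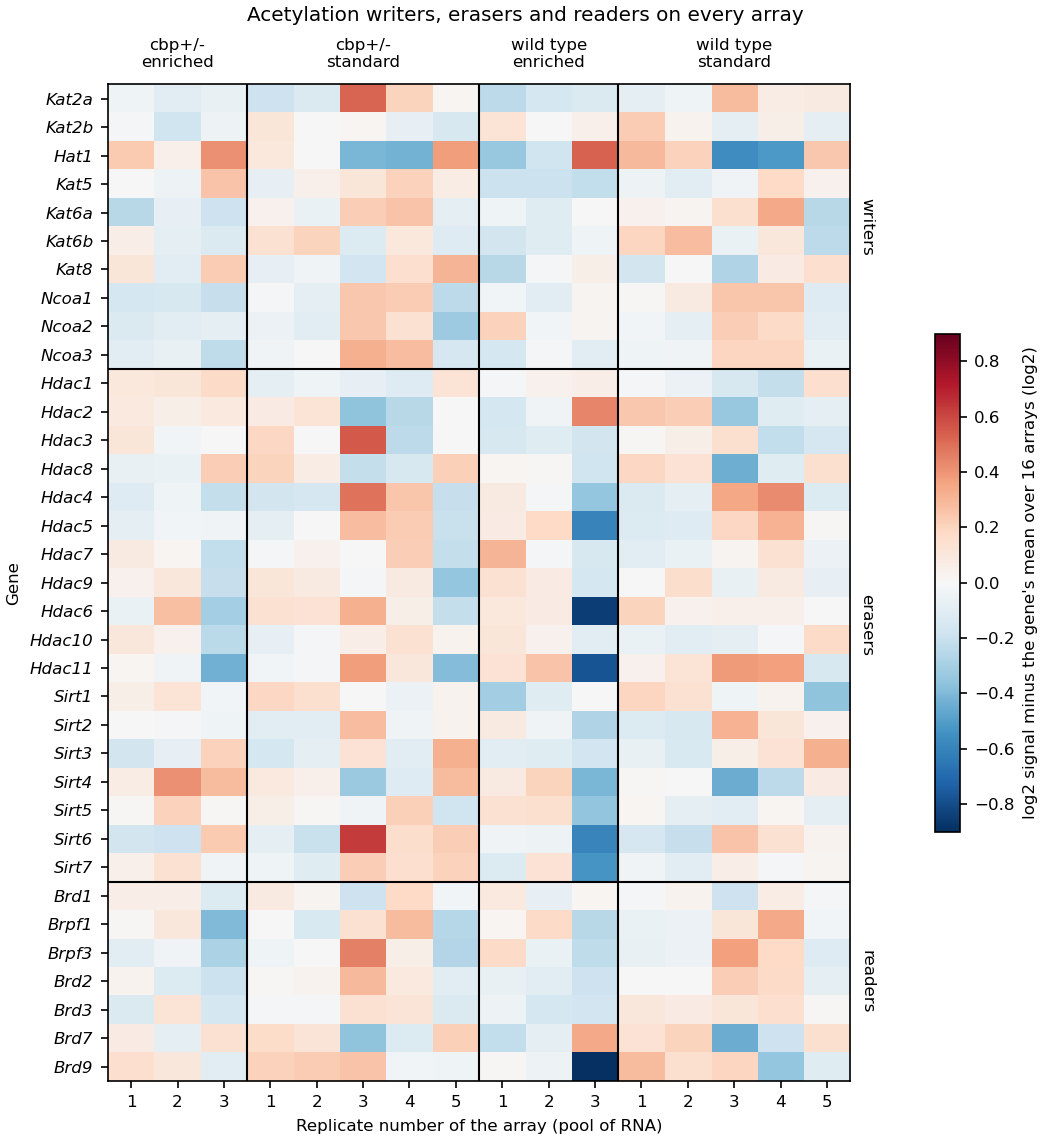
Log2 signal of each of the 35 members (rows, grouped as writers, erasers and readers) on each of the 16 arrays (columns, by group and replicate number), as the deviation from the gene's mean over all arrays. Blocks of the same colour recur in standard-cage replicates 3 and 4 of both genotypes, and replicate 3 of enriched wild type holds the deepest blue cells.

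Enrichment against standard cage was compared in each genotype, which asks how housing bears on these genes, and wild type is described first. The lowest p-values belonged to a reader and a writer, Brd3 and Kat5, whose levels were lower on all 3 enriched arrays than on any of the 5 standard-cage arrays. The writer Kat2a lay apart in the same way. These 3 of 35 members compare with 2% of all probe sets whose enriched arrays all lay below. A further 9.16% of all probe sets lay wholly above, and 0 members did. Among the 10923 probe sets in the members' range of brightness (mean log2 signal 6.34 to 9.70), 3.33% lay wholly below and 2.06% wholly above. Unadjusted p was below 0.05 for 2 members, both lower, against 17.8% of all probe sets (3.72% lower and 14.1% higher). In the members' range of brightness it was 10.1% (6.44% lower and 3.65% higher).

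Brd3 is a BET protein, a reader that binds acetylated histone tails and recruits the transcription elongation machinery. Its level was 7.80, 7.69 and 7.67 on enriched wild-type arrays, against 7.95, 7.92, 7.95, 7.99 and 7.85 on standard-cage ones. The groups did not overlap, and the gap between them was narrower than the range of the enriched arrays. The difference was -0.21 (SE 0.073, 95% interval -0.37 to -0.06, adjusted p = 0.176 in limma). Within set 1 it was -0.19 and within set 3, with a single array a group, -0.18, while quantile normalization between arrays gave -0.13. On enriched arrays labelled cbp+/- Brd3 read 7.71, 7.97 and 7.68, against 7.83, 7.83, 7.98, 7.96 and 7.72 in standard cages, which overlapped.

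Kat5 (Tip60) is the catalytic subunit of the NuA4 complex and acetylates histone H4, H2A and the kinase ATM. Enriched wild-type arrays read 7.64, 7.64 and 7.61, against 7.78, 7.73, 7.80, 8.01 and 7.87 on standard-cage arrays. The 3 enriched arrays lay close together, with an SD of 0.016 against 0.108 in standard cages. The difference was -0.21 (SE 0.079, 95% interval -0.38 to -0.04, adjusted p = 0.205 in limma), with -0.12 within set 1, -0.26 within set 3 and -0.13 after quantile normalization.

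Kat2a (Gcn5) is the acetyltransferase of the SAGA and ATAC complexes and acetylates histone H3. It read 7.80, 7.88 and 7.91 on enriched wild-type arrays and 7.96, 8.002, 8.33, 8.10 and 8.12 on standard-cage arrays. The highest enriched array was just below the lowest standard-cage one, and the difference was -0.24 (SE 0.129, adjusted p = 0.346 in limma). Without replicate 3 in standard cages, the highest array, it was -0.18. On arrays labelled cbp+/- Kat2a read 7.998, 7.93 and 7.97 in enrichment against 7.85, 7.91, 8.56, 8.24 and 8.06 in standard cages, where the enriched arrays fell inside the standard-cage range.

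The promoters of Kat5, Kat2a and Brd3 are shown because these 3 members lay apart between housings, and because CBP acts through CREB, whose response element (CRE) has the palindrome TGACGTCA and the shorter core TGACG. Each is the 250 bases upstream of a RefSeq transcription start in assembly GRCm38.p6, on the minus strand of its chromosome, written 5′ to 3′ with the CRE core on either strand (TGACG or CGTCA) in capitals.
Kat2a, chr11:100712468-100712717: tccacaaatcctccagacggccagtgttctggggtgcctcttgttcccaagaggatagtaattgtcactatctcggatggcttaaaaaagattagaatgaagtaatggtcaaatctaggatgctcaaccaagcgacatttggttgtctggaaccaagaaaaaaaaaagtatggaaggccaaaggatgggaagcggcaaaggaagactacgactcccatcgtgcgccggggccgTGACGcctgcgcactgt
Kat5, chr19:5610095-5610344: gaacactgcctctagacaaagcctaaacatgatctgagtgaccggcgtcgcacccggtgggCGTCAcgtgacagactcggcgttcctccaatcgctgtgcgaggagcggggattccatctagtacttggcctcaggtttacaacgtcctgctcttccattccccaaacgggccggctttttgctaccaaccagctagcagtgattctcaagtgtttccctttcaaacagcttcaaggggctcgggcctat
Brd3, chr2:27475399-27475648: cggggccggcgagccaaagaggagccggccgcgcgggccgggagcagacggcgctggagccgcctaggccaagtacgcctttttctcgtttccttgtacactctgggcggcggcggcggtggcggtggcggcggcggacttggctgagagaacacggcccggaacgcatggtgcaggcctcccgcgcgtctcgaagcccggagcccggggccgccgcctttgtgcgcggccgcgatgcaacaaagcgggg
Kat2a and Kat5 each hold 1 core in this stretch, and the core of Kat5 overlaps an E-box (CACGTG). Brd3 holds 0, within a stretch of 73.2% GC. Among the 29 of 35 members with a RefSeq window in the table, counting 250 bases before to 50 after a start, 11 (37.9%) held the core on either strand in at least 1 window, against 28.0% of 15612 tested genes with a window. The palindrome was in 0 of 29 against 2.72%, and the E-box in 4 (13.8%) against 9.5%. Median GC was 62.0% in the members' windows and 57.67% in those of tested genes. The core is part of the palindrome and 5 letters long, so a match is a description of the letters and not a site bound by a factor.

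Among the remaining members with the smallest p in wild type, Brd2, the BET partner of Brd3, differed by -0.18 (SE 0.088), with enriched arrays at 8.56, 8.52 and 8.44 against 8.62, 8.63, 8.85, 8.80 and 8.55 in standard cages. The groups overlapped only at replicate 5 of the standard cage. Brd9, a reader of a SWI/SNF remodelling complex, differed by -0.35 (SE 0.190) and Hdac6, a cytoplasmic deacetylase of tubulin, by -0.29 (SE 0.188). Both rested on replicate 3 of the enriched wild-type group. Brd9 read 8.92, 8.86 and 7.98 on enriched wild-type arrays, against 9.19, 9.05, 9.10, 8.56 and 8.79 in standard cages. Hdac6 read 8.09, 8.06 and 7.14 on the enriched ones. Without it the differences were -0.05 for Brd9 and 0.02 for Hdac6.

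Of the erasers best known from memory studies, Hdac2, a class I deacetylase found at promoters of synaptic genes, differed by 0.10 (SE 0.155) in wild type. Hdac3, the catalytic subunit of the NCoR complex, differed by -0.11 (SE 0.133) and Hdac5, a class IIa deacetylase that leaves the nucleus on neuronal activity, by -0.17 (SE 0.161). Sirt1, a nuclear sirtuin that deacetylates histones and transcription factors, and Sirt2, a mostly cytoplasmic one abundant in oligodendrocytes, differed by -0.13 (SE 0.109) and -0.11 (SE 0.111). Kat2b (PCAF), the close paralog of Kat2a, differed by 0.03 (SE 0.075). Sirt1 read 6.84, 7.05 and 7.16 on enriched wild-type arrays and 7.35, 7.29, 7.12, 7.19 and 6.80 in standard cages, a range that held the enriched arrays. Every one of these 95% intervals spans 0, and those of Hdac2 (-0.23 to 0.43) and Hdac5 (-0.52 to 0.18) are wide.

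The wild-type housing differences of many members had opposite signs in array sets 1 and 3. Within set 1, the fit over all 8 arrays of that set, 24 of 35 members had the opposite sign from that within set 3. Set 3 held a single array a group, here replicate 3 of enriched wild type and replicate 5 of the standard cage. The set and these single arrays cannot be told apart. The share of all probe sets with opposite signs was not computed. Hdac2 was at -0.33 in set 1 and 0.52 in set 3, Hat1, which acetylates newly made histones, at -0.51 and 0.29, and Sirt1 at -0.37 and 0.37. Hdac5 showed the reverse order, 0.24 and -0.61. Within set 1, 7 members passed the adjusted threshold (Hat1, Kat6b, Hdac2, Sirt1, Brd7 and Brd9 lower, Hdac5 higher), where 29.9% of all probe sets did. Kat5, Kat2a, Brd3 and Brd2 were among the 10 members lower in both sets.

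**Figure D2:**
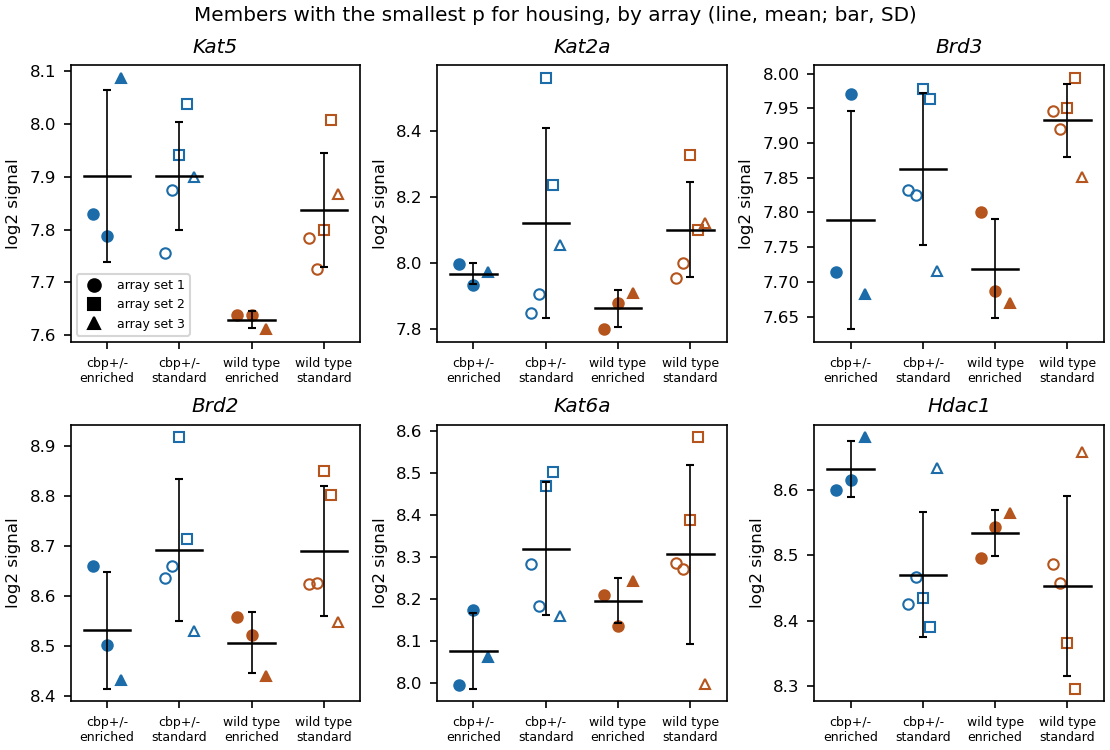
Log2 signal of Kat5, Kat2a, Brd3, Brd2, Kat6a and Hdac1 on every array (points, with symbols for the 3 array sets), with the mean (line) and SD (bar) of each group of 3 or 5 arrays. In wild type the enriched arrays of Kat5, Kat2a and Brd3 lie below every standard-cage array, and on arrays labelled cbp+/- the means differ by -0.24 for Kat6a and 0.16 for Hdac1.

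Enrichment against standard cage on arrays labelled cbp+/- gave 2 members with unadjusted p below 0.05, 1 higher and 1 lower, against 2.82% of all probe sets (1.54% higher and 1.29% lower), and 0 members whose groups did not overlap (1.64% of all probe sets lay wholly above and 1.25% wholly below). Hdac1, a class I deacetylase of the Sin3, NuRD and CoREST complexes, was higher and Kat6a, a MYST writer for histone H3, was lower.

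Hdac1 read 8.60, 8.61 and 8.68 on enriched arrays labelled cbp+/-, against 8.43, 8.47, 8.43, 8.39 and 8.63 in standard cages. Only replicate 5 of the standard cage reached the enriched levels. The difference was 0.16 (SE 0.073, 95% interval 0.01 to 0.32, adjusted p = 0.999 in limma). Another probe set of Hdac1 differed by 0.16 (SE 0.095). Within set 1 the difference was 0.16 and within set 3 it was 0.05. In wild type Hdac1 read 8.50, 8.54 and 8.56 in enrichment, against 8.49, 8.46, 8.37, 8.30 and 8.66 in standard cages, with replicate 5 again the highest array.

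Kat6a read 7.99, 8.17 and 8.06 on enriched arrays labelled cbp+/- and 8.28, 8.18, 8.47, 8.50 and 8.16 on standard-cage ones. The highest enriched array passed the lowest standard-cage array by a small margin. The difference was -0.24 (SE 0.111, 95% interval -0.48 to -0.01, adjusted p = 0.999 in limma), with -0.15 within set 1 and -0.10 within set 3. In wild type Kat6a read 8.21, 8.14 and 8.24 in enrichment and 8.29, 8.27, 8.39, 8.58 and 7.998 in standard cages, so the enriched arrays lay inside the standard-cage range.

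The p160 coactivators, which bridge nuclear receptors to CBP and for which acetyltransferase activity has been reported, all had lower means here, also after quantile normalization and after median centring of the arrays, but only Ncoa3 was lower within set 3, where Ncoa1 was at 0.03 and Ncoa2 at 0.25. Blocking on the array sets gave 0.04 for Ncoa2. Ncoa3 differed by -0.22 (SE 0.103), Ncoa1 by -0.19 (SE 0.107) and Ncoa2 by -0.08 (SE 0.113). Ncoa3 read 7.36, 7.39 and 7.23 on enriched arrays labelled cbp+/-, against 7.42, 7.46, 7.78, 7.74 and 7.31 in standard cages, where replicates 3 and 4 (set 2) supplied the high values. In wild type it read 7.30, 7.44 and 7.36 in enrichment and 7.42, 7.43, 7.65, 7.65 and 7.396 in standard cages, with the same replicates high. Brd2 differed by -0.16 (SE 0.088) on arrays labelled cbp+/-, with 8.66, 8.50 and 8.43 in enrichment against 8.64, 8.66, 8.92, 8.71 and 8.53 in standard cages. The mitochondrial sirtuin Sirt4 differed by 0.26 (SE 0.162).

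Of the remaining members singled out by role, Hdac2 differed by 0.16 (SE 0.155), Hdac3 by -0.07 (SE 0.133), Hdac5 by -0.09 (SE 0.161), Sirt1 by -0.01 (SE 0.109), Sirt2 by -0.03 (SE 0.111), Kat2a by -0.15 (SE 0.129) and Kat2b by -0.06 (SE 0.075). Kat5 had the same mean, 7.90, in both housings (SE of the difference 0.079). It read 7.83, 7.79 and 8.09 in enrichment against 7.76, 7.87, 7.94, 8.04 and 7.90 in standard cages, and the SD of the enriched arrays was 0.162, against 0.016 in enriched wild type.

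As a group, 27 of 35 members were lower in enrichment on arrays labelled cbp+/- (77.1%, against 45% of all probe sets, the other 55% being higher), with a median of -0.06 against 0.01 over all. After quantile normalization 23 of 35 were lower. The median was -0.0205 without replicate 3 of the enriched arrays, -0.0232 with the array sets as a block, -0.0150 within set 1 and -0.0185 within set 3. In wild type, 24 of 35 were lower (68.6%, against 41.6% of all probe sets, the other 58.4% being higher), with a median of -0.11 against 0.03. After median centring of the arrays 32 of 35 were lower in wild type. Centring moved the median over all probe sets there from 0.03 to -0.04, and quantile normalization moved it to 0.0006. The members' medians under both settings are given in the closing section. Probe sets of the members' own range of brightness (6.34 to 9.70 in mean log2 signal, 10923 probe sets) were lower in 57.1% and 64.6% of cases, with medians of -0.02 and -0.06, so the wild-type share is close to that of equally bright probe sets. Writers, erasers and readers had medians of -0.09, -0.03 and -0.08 on arrays labelled cbp+/-, and of -0.12, -0.11 and -0.10 in wild type. These signs were not stable. The erasers' median was 0.01 on arrays labelled cbp+/- with the sets as a block and without replicate 3 of the enriched arrays. In wild type it was 0.02 without replicate 3 of the enriched arrays, 0.09 within set 1 and 0.03 with array weights, and the writers' median was 0.13 within set 3 (0.0067 on arrays labelled cbp+/-). Without replicate 3 of enriched wild type the median of all members in wild type was -0.05.

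Over both genotypes 5 members had unadjusted p below 0.05, against 19.1% of all probe sets and 14.2% of those in the members' range of brightness. Brd3 differed by -0.14 (SE 0.051), Brd2 by -0.17 (SE 0.062), Ncoa3 by -0.18 (SE 0.073), Hdac1 by 0.12 (SE 0.051) and Kat6a by -0.18 (SE 0.078). Their adjusted p in limma lay between 0.185 and 0.245. Kat2a followed at -0.20 (SE 0.091). Set 2 held standard-cage arrays only, and Brd3, Brd2, Ncoa3 and Kat6a read higher on it than on any other standard-cage array. In this fit their lower means in enrichment cannot be told apart from the make-up of the sets.

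The remaining members are described by their mean levels, given in the order enriched cbp+/-, standard-cage cbp+/-, enriched wild type and standard-cage wild type. Kat8 (Mof), a MYST writer for histone H4, averaged 7.83, 7.78, 7.68 and 7.71, and Kat6b, the paralog of Kat6a, 8.33, 8.42, 8.28 and 8.44. None of the differences between these means passed the test in limma.

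Among the erasers, Hdac8, a class I enzyme that acts on cohesin, averaged 7.39, 7.38, 7.30 and 7.34. The class IIa enzyme Hdac7 averaged 6.82, 6.86, 6.91 and 6.85, and Hdac9 of the same class 8.44, 8.44, 8.48 and 8.48. Hdac10, a polyamine deacetylase of class IIb, averaged 6.56, 6.62, 6.61 and 6.58. None of these 4 erasers differed between groups past the threshold. The mitochondrial sirtuins Sirt3, a deacetylase of metabolic enzymes, and Sirt5, which removes succinyl groups, averaged 7.29, 7.32, 7.18 and 7.36, and 6.57, 6.51, 6.47 and 6.45. Of the readers, Brd1, Brpf1 and Brpf3, scaffolds of MYST writer complexes, averaged 8.14, 8.16, 8.15 and 8.12, then 7.52, 7.62, 7.59 and 7.67, and 6.52, 6.69, 6.62 and 6.72. Brd7, a reader of the PBAF remodelling complex, averaged 8.27, 8.23, 8.24 and 8.20.

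**Figure D3:**
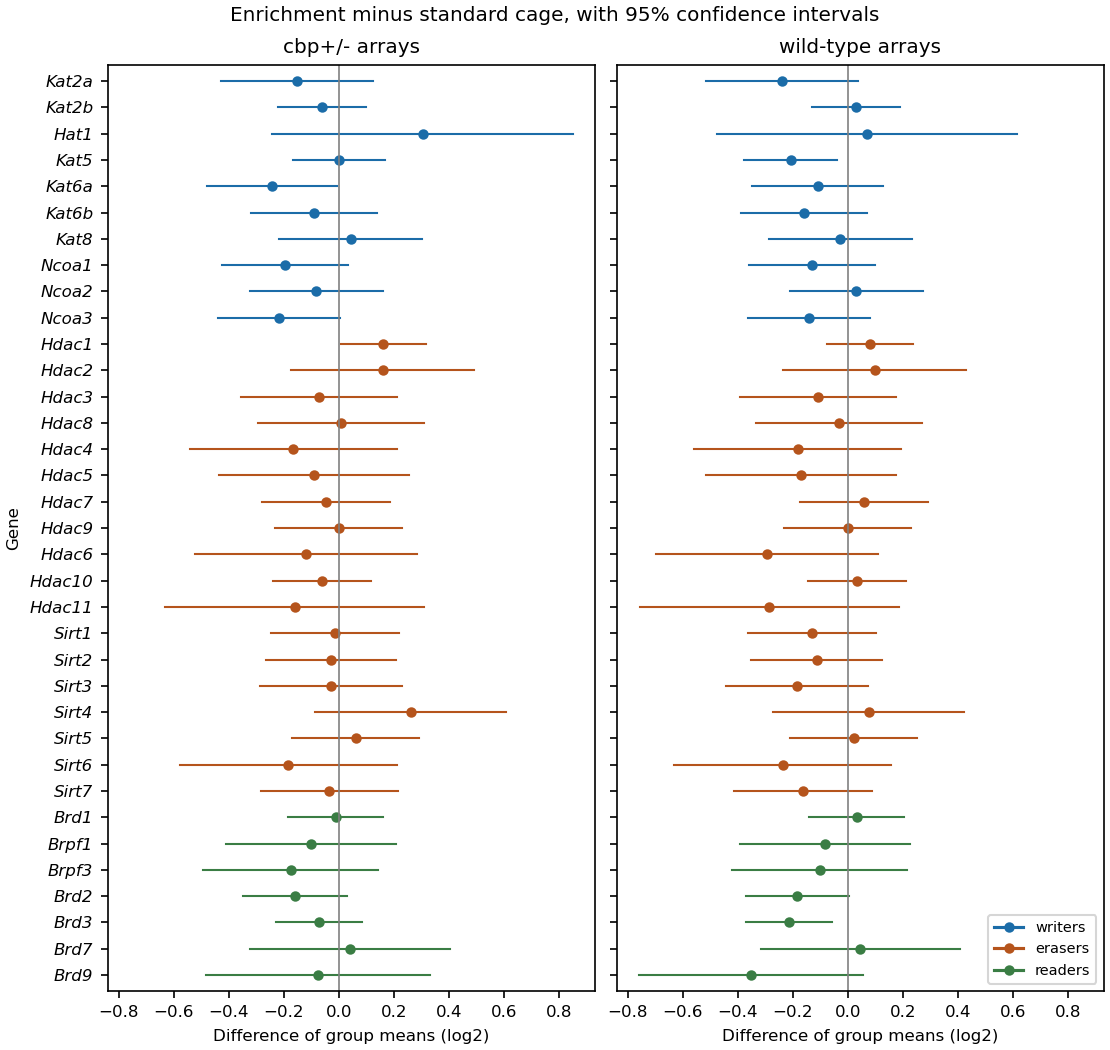
Difference of group means (log2, enrichment minus standard cage) with its 95% confidence interval for each of the 35 members, on arrays labelled cbp+/- (left) and in wild type (right). Most points lie left of 0 in both panels, 27 of 35 and 24 of 35, and the intervals of Brd3 and Kat5 in wild type and of Kat6a and Hdac1 on arrays labelled cbp+/- leave out 0.

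The genotypes were compared within each housing, which asks how CBP deficiency bears on these genes. In enrichment, Kat5 alone had unadjusted p below 0.05 (1 of 35, against 5.23% of all probe sets, 1.16% higher and 4.07% lower). It read 7.83, 7.79 and 8.09 on enriched arrays labelled cbp+/-, against 7.64, 7.64 and 7.61 in enriched wild type, so the groups did not overlap. The difference was 0.27 (SE 0.088, 95% interval 0.08 to 0.46, adjusted p = 0.924 in limma). This comparison and the wild-type housing comparison share the 3 enriched wild-type arrays. With the same-numbered arrays of the genotypes taken as pairs, the adjusted p was 0.305. Without the highest array, replicate 3 labelled cbp+/-, the difference was 0.18.

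In enrichment 21 of 35 members were higher (60%, against 41.7% of all probe sets, the other 58.3% being lower), and 25 of 35 after median centring. Centring moved the median over all probe sets from -0.02 to 0.015. Of the probe sets in the members' range of brightness 59.3% were higher, so the members' share is near theirs. The medians were 0.06 for the members and -0.02 for all probe sets, and the members' median was -0.0055 without replicate 3 of enriched wild type. Of all 35, 4 members lay wholly higher on arrays labelled cbp+/- (Kat5, Kat2a, Hdac1 and Hdac3, against 3.53% of all probe sets) and 3 wholly lower (Kat2b, Ncoa1 and Ncoa2, against 6.85%). In the members' range of brightness 5.8% of probe sets lay wholly higher and 3.12% wholly lower. Kat2b read 6.33, 6.16 and 6.29 on enriched arrays labelled cbp+/- against 6.46, 6.34 and 6.39 in enriched wild type, a difference of -0.14 (SE 0.083). The paralog Kat2a differed by 0.11 (SE 0.144), the other way. Hdac3 differed by 0.17 (SE 0.148), Hdac1 by 0.10 (SE 0.081), Ncoa2 by -0.17 (SE 0.126) and Ncoa1 by -0.14 (SE 0.120).

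All 7 sirtuins had a higher mean on enriched arrays labelled cbp+/- than in enriched wild type, also after quantile normalization and median centring, with differences between 0.06 and 0.30 and a median of 0.18, and none passed the test. With array weights 5 of the 7 were lower instead, and 4 of the 7 within set 1. Sirt4 differed by 0.30 (SE 0.181), Sirt7, a nucleolar sirtuin, by 0.23 (SE 0.131), Sirt1 by 0.19 (SE 0.121) and Sirt2 by 0.06 (SE 0.124). For most of them the values rested on replicate 3 of enriched wild type. Sirt7 read 7.29, 7.38 and 7.21 on enriched arrays labelled cbp+/- against 7.12, 7.37 and 6.71 in enriched wild type. Sirt4 read 7.86, 8.21 and 8.09 against 7.88, 8.002 and 7.39 in the same groups, and Sirt1 7.21, 7.28 and 7.13 against 6.84, 7.05 and 7.16. The low value on replicate 3 of enriched wild type is seen for Sirt7 and Sirt4 and not for Sirt1. Without that array, the difference was 0.05 for Sirt7, 0.11 for Sirt4, 0.26 for Sirt1, -0.04 for Sirt2, 0.09 for Sirt3, -0.07 for Sirt5 and 0.0006 for Sirt6. Brd9 differed by 0.37 (SE 0.213) with the array and by 0.07 without it, with 9.06, 9.004 and 8.81 on enriched arrays labelled cbp+/-. Hdac2 and Hdac5 differed by -0.005 (SE 0.173) and 0.07 (SE 0.181).

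In standard cages, with 5 arrays a group, 0 of 35 members had unadjusted p below 0.05 in limma, against 0.987% of all probe sets (0.5% higher and 0.487% lower), and 0 members had groups that did not overlap, against 0.174% of all probe sets wholly higher and 0.0872% wholly lower. Of the 35, 20 were higher and 15 lower, against 53.7% and 46.3% of all probe sets. The members' differences lay between -0.15 and 0.13. The smallest p belonged to Hdac3 at 0.13 (SE 0.115), whose level on arrays labelled cbp+/- was 9.55, 9.36, 9.92, 9.13 and 9.37 against 9.38, 9.41, 9.51, 9.14 and 9.22 in wild type. The groups overlapped, and replicate 3 labelled cbp+/- was the highest array for Hdac3. Brd3 differed by -0.07 (SE 0.063), Sirt7 by 0.10 (SE 0.101), Kat5 by 0.07 (SE 0.068), Sirt6, a nuclear sirtuin, by 0.13 (SE 0.159) and Sirt4 by 0.11 (SE 0.140). Sirt1 differed by 0.07 (SE 0.094), Sirt2 by -0.02 (SE 0.096), Hdac2 by -0.07 (SE 0.134), Hdac5 by -0.01 (SE 0.140), Kat2a by 0.02 (SE 0.112) and Kat2b by -0.05 (SE 0.065). The 95% intervals reached from -0.08 to 0.21 for Kat5 and from -0.18 to 0.09 for Kat2b. Same-numbered arrays of the genotypes deviated together in standard cages (r = 0.571 to 0.763). The errors given here leave that pairing out and may be wider than paired ones.

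On single arrays in standard cages, Sirt7 read 7.20, 7.13, 7.46, 7.39 and 7.45 on those labelled cbp+/- against 7.21, 7.14, 7.30, 7.23 and 7.26 in wild type, so 3 of the 5 lay above every wild-type array. Sirt4 read 7.89, 7.85, 7.47, 7.68 and 8.09 against 7.81, 7.80, 7.36, 7.57 and 7.87, with replicates 3 and 4 low in both genotypes. Kat2b read 6.45, 6.34, 6.36, 6.27 and 6.20 against 6.57, 6.37, 6.25, 6.39 and 6.26. Sirt1 read 7.35, 7.30, 7.16, 7.11 and 7.19 against 7.35, 7.29, 7.12, 7.19 and 6.80, where the last wild-type array was the lowest. Brd9 read 9.11, 9.14, 9.16, 8.88 and 8.87 against 9.19, 9.05, 9.10, 8.56 and 8.79, with the groups overlapping.

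**Figure D4:**
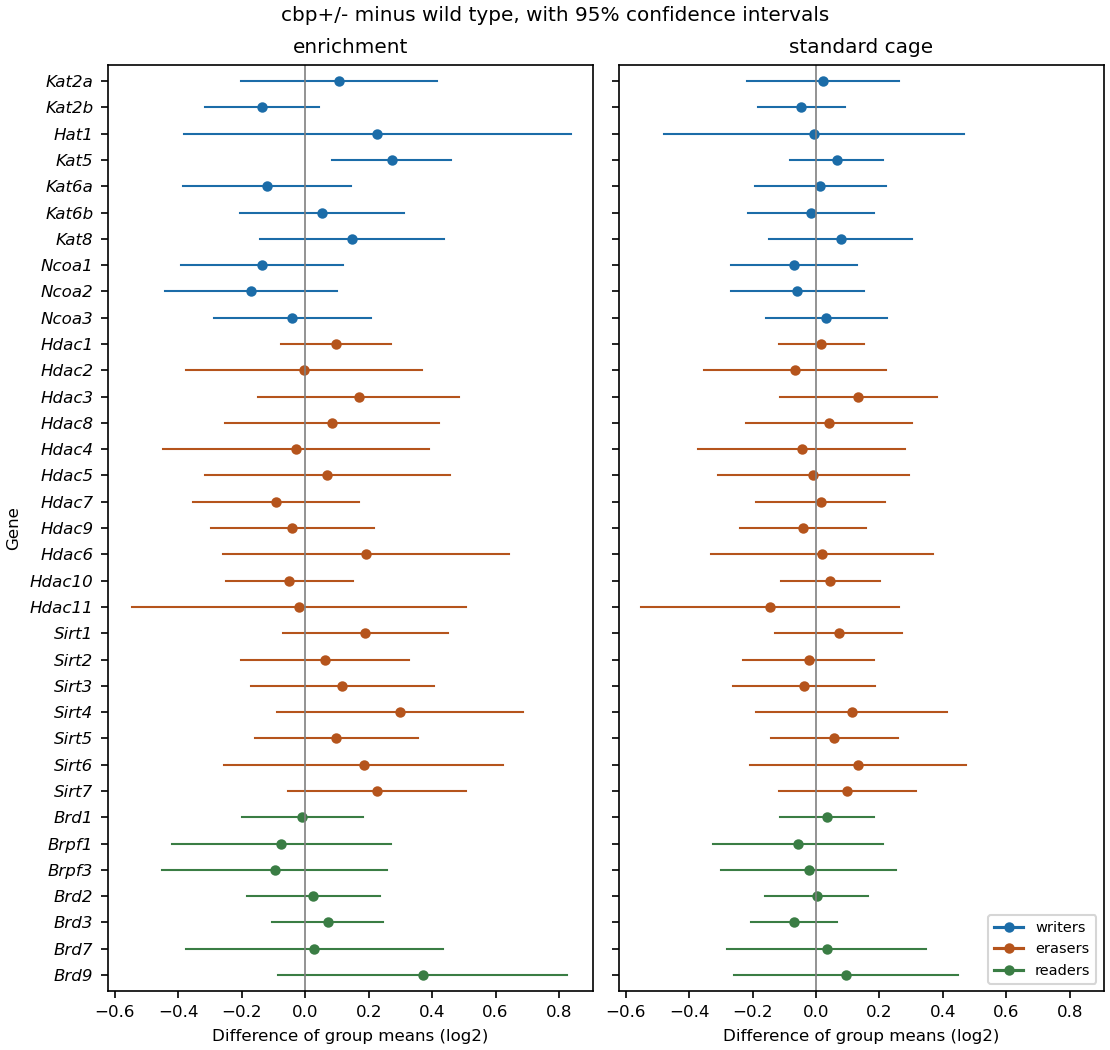
Difference of group means (log2, arrays labelled cbp+/- minus wild type) with its 95% confidence interval for each of the 35 members, in enrichment (left) and in standard cages (right). Kat5 in enrichment is the member whose interval leaves out 0, and all 7 sirtuins lie right of 0 in enrichment.

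Same-numbered arrays of the 2 genotypes resembled each other within each housing, and they are compared here as 8 pairs. Both arrays of a pair always lay in the same array set, and differently numbered arrays were not compared. The resemblance therefore cannot show that the numbers pair single arrays. Ncoa1 was lower on the array labelled cbp+/- in 8 of 8 pairs, by 0.007 to 0.233 on the log2 scale, as were 0.927% of all probe sets. Kat5, Sirt4 and Brd9 were higher in 7 of 8 (3 of 35, where 5.12% of all probe sets were higher in at least 7). Kat2b, Ncoa2 and Hdac11 were lower in 7 of 8, which with Ncoa1 makes 4 of 35, where 5.17% of all probe sets were lower in at least 7. Over both housings, Kat5 differed by 0.17 (SE 0.056), with 1 of 35 members at unadjusted p below 0.05 against 3.91% of all probe sets, and Ncoa1 by -0.10 (SE 0.076). Sirt7 differed by 0.16 (SE 0.083), Sirt4 by 0.20 (SE 0.114), Kat2b by -0.09 (SE 0.053), Brd9 by 0.23 (SE 0.134) and Sirt1 by 0.13 (SE 0.077). With the pairs as a block, the adjusted p was 0.245 for Kat5 and 0.326 for Ncoa1, and 0 members were called in limma.

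Whether the housing response differed between genotypes was asked by the interaction, the enrichment effect on arrays labelled cbp+/- minus that in wild type. None of the 35 members had unadjusted p below 0.05 (2.66% of all probe sets did, 2.29% with a negative value, and 0% passed the adjusted threshold in limma). Of the 35, 23 were above 0 and 12 below, against 42.5% and 57.5% of all probe sets. Of the probe sets in the members' range of brightness 59.1% were above 0 and 40.9% below, on the same side as the members. Kat5 came nearest, at 0.21 (SE 0.111, 95% interval -0.03 to 0.45), followed by Brd3 at 0.14 (SE 0.103), Brd9 at 0.28 (SE 0.269), Sirt3, a mitochondrial sirtuin, at 0.15 (SE 0.170), Kat2b at -0.09 (SE 0.105) and Kat6a at -0.13 (SE 0.157). Of the remaining members named by role, Sirt1 was at 0.12 (SE 0.154), Sirt2 at 0.08 (SE 0.157), Kat2a at 0.08 (SE 0.183), Hdac5 at 0.08 (SE 0.228), Hdac2 at 0.06 (SE 0.219) and Hdac3 at 0.03 (SE 0.188). An interval such as that of Hdac2 (-0.41 to 0.53) leaves room for sizeable differences either way.

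The spread among arrays of a group was wide for many members. Their median pooled SD was 0.168, against 0.134 over all 21780 probe sets. A median of 54.3% of their within-group spread lay between array sets, against 32.4% over all. The members' range of brightness holds 10923 of the 21780 probe sets. Neither value was computed for that range alone, so these contrasts may reflect brightness. The widest were Hat1 (pooled SD 0.377), Hdac11, the only class IV deacetylase (0.324), Brd9 (0.280), Hdac6 (0.277), Sirt6 (0.270) and Hdac4, a class IIa deacetylase (0.258).

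Some members moved together across arrays. In standard cages, 10 members read higher on the 4 arrays of set 2 than on any of the other 6 (Kat6a, Ncoa1, Ncoa2, Ncoa3, Hdac4, Hdac5, Brpf1, Brpf3, Brd2 and Brd3), where 7.8% of all probe sets did. In the opposite direction were Hat1, Hdac2, Hdac8, Sirt4 and Brd7, 5 members, against 6.03% of all probe sets. Hdac4 was at 8.11 to 8.35 in set 2 and at 7.66 to 7.78 on the other standard-cage arrays, and Hat1 at 6.99 to 7.14 and 7.54 to 7.92. The sets were defined from all probe sets, so these counts are a description.

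Deviations from group means over the 16 arrays correlated at r = 0.943 for Hat1 and Brd7, 0.904 for Hdac2 and Brd7, 0.907 for Ncoa1 and Ncoa2 and 0.916 for Brpf3 and Brd2. They were opposed for Hdac4 and Brd7 (r = -0.935), Hat1 and Hdac4 (r = -0.933) and Hdac2 and Sirt2 (r = -0.921). The median over all 595 pairs was 0.111. These points share their arrays and the array sets, and the correlations are given without a test.

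Some cell-type markers differed between array sets or stood apart on single arrays. In standard cages, 6 of the 14 pyramidal and granule neuron markers read higher on all 4 arrays of set 2 than on the other 6, and 1 read lower. Of the interneuron (8), oligodendrocyte (11), microglia (8) and choroid plexus (9) markers 0 did either. Of the astrocyte (8), endothelial (7) and neighbouring tissue (10) markers 1 each read higher and 0 lower. Of the markers of meninges, ependyma and blood (8), 1 read higher and 2 lower. Replicate 3 of enriched wild type was the lowest array for 12 of 35 members (14% of all probe sets) and the highest for 3 (13.1% of all probe sets). On it 7 of 11 oligodendrocyte markers and 6 of 14 pyramidal and granule neuron markers had their lowest value, while 3 of those 14 had their highest. Of the interneuron markers 3 of 8 were lowest there, of the astrocyte markers 2 of 8, and 0 of either were highest. Of the microglia markers 1 of 8 was lowest and 2 were highest. The oligodendrocyte list level was -0.36 against -0.05 and 0.14 on the other enriched wild-type arrays. On replicate 3 of standard-cage arrays labelled cbp+/-, the highest array for 10 of 35 members (14.2% of all probe sets), all 9 choroid plexus markers had their highest value, at a list level of 0.73 against -0.14 to 0.02 on the other arrays of its group. That array was the highest of its group for Hdac3, Sirt6 and Kat2a. The part of these marker shifts in the members' values was not tested.

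**Figure D5:**
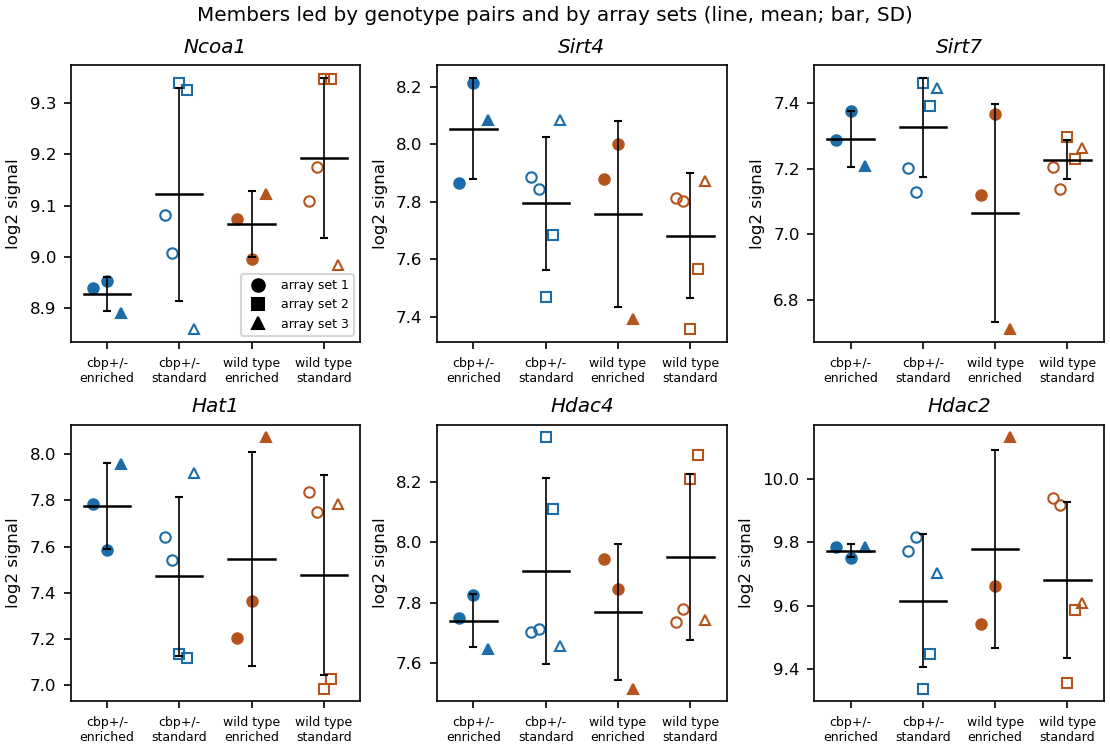
Log2 signal of Ncoa1, Sirt4, Sirt7, Hat1, Hdac4 and Hdac2 on every array (points, with symbols for the 3 array sets), with the mean (line) and SD (bar) of each group of 3 or 5 arrays. Square symbols (set 2) stand high for Ncoa1 and Hdac4 and low for Hat1 and Sirt4 in standard cages, and the triangle of enriched wild type is the lowest array for Sirt7 and Hdac4.

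Genes that work with these enzymes gave no calls either. Of 36 subunits of acetyltransferase complexes, 35 subunits of deacetylase corepressor complexes, 25 further bromodomain and YEATS readers and 17 genes of acetyl-CoA and NAD supply, 0 passed the adjusted threshold in any comparison in limma. Ep400, the scaffold of the NuA4 complex that holds Kat5, differed by -0.30 (SE 0.103) in enrichment on arrays labelled cbp+/-. All 3 enriched arrays lay below every standard-cage array there, as for 1.25% of all probe sets. In wild type Ep400 differed by -0.24 (SE 0.103), with 2 of 3 below. Mta2, a NuRD subunit that binds Hdac1, had the smallest p of its list in wild type. Its housing difference was -0.25 (SE 0.068, adjusted p = 0.133 in limma), with all 3 enriched arrays below, as for 2% of all probe sets. In enrichment Mta2 was 0.22 (SE 0.076) higher on arrays labelled cbp+/- than in wild type, and its relative Mta3 0.17 (SE 0.064) higher.

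The scaffold Sin3a differed by -0.16 (SE 0.055) between housings in wild type, and the reader Bptf of the NURF remodelling complex by -0.44 (SE 0.159), each with 2 of 3 enriched arrays below every standard-cage array. Nadsyn1, an enzyme of NAD synthesis, was higher on all 3 enriched wild-type arrays, by 0.17 (SE 0.057), and 9.16% of all probe sets likewise lay wholly above. Its means of 6.18 in enrichment and 6.01 in standard cages lay below the members' range of brightness. Ing1, a subunit of the Sin3 complex that reads methylated histone H3, had lower means on arrays labelled cbp+/- in both housings, with differences of -0.17 (SE 0.065) in enrichment and -0.18 (SE 0.051) in standard cages. Ruvbl2, an ATPase of the NuA4 complex, differed by 0.21 (SE 0.074) and Tada2a, an adaptor of Kat2a in the ATAC complex, by 0.25 (SE 0.102) between genotypes in enrichment.

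The 4 lists are given in the order acetyltransferase complex subunits, corepressor subunits, further readers and acetyl-CoA and NAD supply. In enrichment on arrays labelled cbp+/-, 20 of 36, 21 of 35, 22 of 25 and 9 of 17 were lower, with medians of -0.02, -0.05, -0.08 and -0.008. In wild type 23, 23, 17 and 11 were lower, with medians of -0.06, -0.07, -0.07 and -0.04. Probe sets of the members' brightness range, for comparison, were lower in 57.1% and 64.6% of cases. Between genotypes in enrichment 24, 18, 14 and 10 were higher on arrays labelled cbp+/-, and in standard cages 31, 14, 13 and 9. Of all probe sets 41.7% were higher in enrichment and 53.7% in standard cages. In the members' brightness range the shares were 59.3% and 53.7%. The median difference over all 36 complex subunits in standard cages was 0.05, but the median level of the list was lower on the array labelled cbp+/- in replicates 1 and 2 (0.030 against 0.043, and 0.004 against 0.011) and higher in replicates 3 to 5. The further readers' list level was higher in enrichment within set 3 on arrays labelled cbp+/- (-0.002 against -0.037).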

How the data were processed

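The authors deposited 1 linear intensity per probe set and array, a microarray brightness from 22.12 to 16520.86. RMA is the tool that the submitters' processing notes give, and the labels' protocols name GeneSpring GX. Neither the versions nor any baseline centring was stated in the sources used, and that the scale is linear was judged from the range. Of 28815 probe sets, 23385 are listed with the platform's annotation and 21780 carry exactly 1 gene symbol. Only these were tested.

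Log2 of the intensity was fitted with limma 3.58.1 in R 4.3.3 as 4 group means over 16 arrays (12 residual degrees of freedom), with eBayes and Benjamini-Hochberg adjustment over all tested probe sets at 0.05. The 7 comparisons were housing in each genotype, genotype in each housing, their interaction, and both averaged effects. Groups and replicate numbers came from the sample titles. Dim probe sets stayed in, since RMA makes no detection call, and the number of arrays limits precision. The arrays are independent pools per the labels. The script was tested on simulated data with known changes.

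Members and lists were chosen with earlier results of these data known. In each comparison the 6 members with the smallest p were named where fewer passed the threshold, along with 8 members known from the brain (Hdac2, Hdac3, Hdac5, Sirt1, Sirt2, Kat2a, Kat2b and Kat5). Members named repeatedly are shown for every array. From each other list up to 2 genes with the smallest p in a direction were eligible. Same-numbered arrays of the genotypes deviated together from their group means (r = 0.571 to 0.763 over the 5 standard-cage pairs and 0.272 to 0.644 over the 3 enriched pairs), so the numbers were taken to pair the genotypes within a housing. That pairing was read from the data. Both arrays of each pair also share an array set, which alone could make them deviate together. Alternatives were other scalings, a filter on dim probe sets, array weights, a trended and robust eBayes, replicate blocks, array sets as a block and apart, the mean of a gene's probe sets, and each array left out. Promoter windows are from RefSeq (GRCm38.p6). The build behind the array's probes was not stated, so no probe set coordinates are printed.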

Additional observations from a re-analysis of the deposited data

Results flagged for a closer look

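In the standard-cage groups of 5 arrays, 78 groups of values were examined for a single array far from the rest. In 2 of them the gap to the nearest array, divided by the range of the group, was above Dixon's 95% critical value of 0.71. Chance gives about 1 in 20. The ratio was 0.72 for Hdac9 and 0.79 for Hdac6. Hdac9, a class IIa deacetylase, read 8.11 on replicate 5 labelled cbp+/-, against 8.44 to 8.56 on the other 4 arrays of its group. Hdac6 read 8.19 on replicate 1 of wild type, against 7.995 to 8.04 on the other 4.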

How the results depend on the processing

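No member was called under quantile normalization, median centring, a filter on dim probe sets, a trended and robust eBayes (96 probe sets of all called in wild-type housing, 0.441%), any replicate block, the array sets as a block, the mean of a gene's probe sets, or any array left out. Array weights, an estimate of each array's reliability, called members where they called many probe sets. They gave 2 for housing on arrays labelled cbp+/- (Kat6a and Hdac1, with 4.77% of all probe sets called), 2 for housing in wild type (Kat6b and Brd3, 24.1%), 1 for genotype in enrichment (Kat5 at 0.20, adjusted p = 0.0184 in limma, 11.4%) and 6 for housing over both genotypes (28.3%). Within array set 1 the counts were 7 for housing in wild type (29.9%) and 9 over both genotypes (25.1%). The cause was not tested.

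The members' median for housing in wild type was -0.0334 after quantile normalization, -0.1812 after median centring, -0.0413 with array weights and -0.0343 within set 1. For genotype in enrichment it was -0.0294 with array weights, for the interaction 0.118 within set 3, and for housing over both genotypes 0.0017 within set 1. Leaving out 1 array gave -0.0055 (without replicate 3 of enriched wild type) to 0.0827 (without its replicate 2) for genotype in enrichment, and -0.0367 to 0.0782 for the interaction.

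Among members named by the rule, signs turned by at least 1 standard error in these cases. For housing on arrays labelled cbp+/-, array weights gave Kat2a 0.0324, set 1 gave Hdac2 -0.0272, Sirt2 0.0987 and Kat2a 0.088, and set 3 gave Ncoa1 0.0319, Sirt4 -4e-04, Kat2b 0.0928, Kat5 0.1879 and Hdac5 0.1732. For housing in wild type, array weights gave Hdac2 -0.1492, Sirt2 0.0303, Kat2b -0.0605 and Hdac5 0.1843, set 1 gave Hdac2 -0.3272, Sirt2 0.1588, Kat2b -0.0669 and Hdac5 0.245, and set 3 gave Sirt1 0.3673. Leaving out 1 array there gave -0.4557 to 0.0178 for Hdac6, -0.0796 to 0.2165 for Hdac2 and -0.3171 to 0.0723 for Hdac5. For genotype in enrichment, array weights gave Sirt7 -0.035, Sirt4 -0.0651 and Hdac5 -0.2237, set 1 gave Hdac5 -0.1813, set 3 gave Sirt1 -0.0318, and leaving out 1 array gave -0.1238 to 0.1724 for Hdac2 and -0.1722 to 0.2172 for Hdac5. For genotype in standard cages, set 1 gave Sirt7 -0.0074 and Kat2a -0.1003, and set 3 gave Hdac2 0.0936. For the interaction, leaving out 1 array gave Brd9 -0.0271 to 0.4421, set 3 gave Sirt1 -0.4262 and Hdac2 -0.4401, and Hdac5 was at -0.2547 with array weights and -0.26 within set 1. Over both genotypes, set 3 gave Hdac1 -0.0233 and Kat6a 0.0733 for housing, and over both housings array weights gave Sirt7 -0.0033 for genotype. The values named by smallest p in each comparison, and by role in the housing and genotype comparisons, were recomputed 1777 times. In 85 of these the sign changed, 35 of them by this much. The total includes refits that could not move a value, such as leaving out an array of a group not compared.

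A block on the genotype pairs changed no call among the members. Same-numbered arrays of the 2 housings did not pair (r = 0.00956 to 0.415 on arrays labelled cbp+/- and -0.333 to 0.0649 in wild type), and a replicate block by number called 0 members and 326 probe sets (1.5%) for housing over both genotypes. Groups of 3 and 5 arrays, array sets that cross them, and 1 pooled sample an array limit what differences could be seen.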
